A study of Mus musculus with 6 samples.

Results

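The chromatin around 10 genes of the p53 pathway was described in haploid mouse embryonic stem cells (mESCs) by ATAC-seq, in which the Tn5 transposase cuts accessible DNA and tags it for sequencing. The genes were Trp53, Mdm2, Mdm4, Cdkn1a, Ccng1, Bbc3, Bax, Trp53inp1, Sesn2 and Zmat3. A peak was taken as a member if it overlapped the body of a listed gene or lay within 20 kb of it in the GENCODE annotation of mm9. This rule took 23 of 22753 peaks in the WT list and 23 of 23722 peaks in the list labelled Spen KO clone 3, and it used position only.

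All cells were HATX mESCs of mixed genomic background that carry a doxycycline-inducible Xist transgene, grown in serum and LIF on gelatin. WT cells were HATX with Spen intact, and Spen KO cells had most of Spen deleted, by the list of cell lines in the study, which elsewhere calls the deletion full. Spen is an RNA-binding corepressor needed for silencing by Xist. Each line was studied without doxycycline and after 2 ug/ml for 48 hr, with 1 library listed for each state. Clone 3 is 1 clone of 1 line, and clone 2 was not analysed here. The lists name the line and not the doxycycline state, so it is not known whether the 2 replicate values of a peak come from treated cells, untreated cells or both. If they come from both, the spread between the 2 values includes any effect of doxycycline, in every SD and range below.

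The authors give every peak a value in each of 2 replicates, which they call technical, and the scale is not named. Values were therefore turned into percentiles within their own list, where 100 would be the highest peak, and the score of a peak is the mean of its 2 replicate values. Errors are SDs over the 2 replicates. The error of a difference between the lists is a combined SD, the square root of the summed squares of the WT and clone 3 SDs of the replicate percentiles. With 1 list per line no test between WT and clone 3 was made, and 2 replicates against 2 could not go below an exact two-sided permutation p of 0.333. The read depth is unknown, so a peak missing from a list was below the calling threshold there and is not shown to be closed. Spearman's rho between the replicates over all peaks was 0.829 in WT and 0.834 in clone 3, a description within each list. Of 6 embryonic stem cell markers, Pou5f1 and Zfp42 had a peak at a transcription start site (TSS) in both lists, Sox2 in the WT list, Klf4 and Esrrb in the clone 3 list, and Nanog in neither. Of 6 fibroblast markers, Thy1 had one in the WT list and the other 5 had none. A peak over the annotated Spen start was present in both lists, at percentile 37.6 in WT and 43.7 in clone 3, and no other peak was listed within Spen in either. The breakpoints of the deletion are not given in the sources used here, so these peaks do not check whether the start was removed.

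p53, encoded by Trp53, is a transcription factor that is held low by Mdm2, a ubiquitin ligase, and by its partner Mdm4. DNA damage and other stresses release it, and it then activates genes that stop the cell cycle, such as Cdkn1a, genes that promote cell death, such as Bbc3 and Bax, and its own inhibitor Mdm2. It binds a response element made of 2 copies of a short palindromic half-site. In haploid mammalian cells p53 is known for limiting growth, and its loss lets haploid cultures persist.

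Letters that approach the p53 response element were searched across the 10 loci, with 10 bases for each half-site, a spacer of 0 to 1 bases and at most 1 mismatch. Because the element is palindromic, 1 scan covers both strands. The search of whole loci was added after the peaks had been seen. It found 20 elements, at least 1 at each of the 10 genes, and 2 of them had no mismatch. A pair at Mdm4 overlaps, and a pair near Trp53inp1 has the same letters. The elements below are 2 that lay in a WT peak and in no clone 3 peak, the 2 without a mismatch and the one outside peaks that was closest to a gene start, that of Cdkn1a. Each is printed 5′ to 3′ on the strand of the gene, with the element and any spacer in capitals and its position in mm9.
Ccng1, intron, chr11:40568438-40568457: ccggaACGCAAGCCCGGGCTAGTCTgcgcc
Mdm4, intron, chr1:134916018-134916037: agatgGAACATGTCCAAACCTGTCTctctt
Cdkn1a, upstream, chr17:29227873-29227892: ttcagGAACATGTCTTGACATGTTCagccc
Trp53inp1, upstream, chr4:11082259-11082279: aggaAAACATGTCCAGGACTAGCCTggac
Zmat3, intron, chr3:32263253-32263272: gtgagAAACAAGCCCAGGCATGTCTtggga
The elements of Trp53inp1 and Zmat3 are the 2 without a mismatch, and the other 3 have 1. The Ccng1 element in the intron lay in the WT peak, and the clone 3 peak stopped 25 bp short of it. The Mdm4 element lay in a peak found in the WT list only. In all, 3 of the 20 elements lay in a WT peak and 1 of 20 in a clone 3 peak, where peaks covered 2.25% and 1.89% of the loci. Over all autosomal coding genes, 1.48% of 10133 such elements within 20 kb lay in a WT peak and 1.21% in a clone 3 peak. The other 3 elements shown lay outside peaks. That of Cdkn1a, at -42 bp from the first of its start sites, was 2559 bp from the nearest WT peak and 2563 bp from the nearest clone 3 peak. This first start had no peak in either list, and the peak of both lists lay at the second start. The element of Trp53inp1, at -1309 bp, was 970 bp from the nearest WT peak and 937 bp from the nearest clone 3 peak. That of Zmat3 was 32371 bp away in WT and 32381 bp in clone 3. In the central 300 bp of peaks, elements with up to 2 mismatches were in 2 of 23 member peaks against 3.07% of all autosomal peaks in WT, and in 0 of 23 against 3.12% in clone 3. A match is a description of letters and does not show binding.

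**Figure D1:**
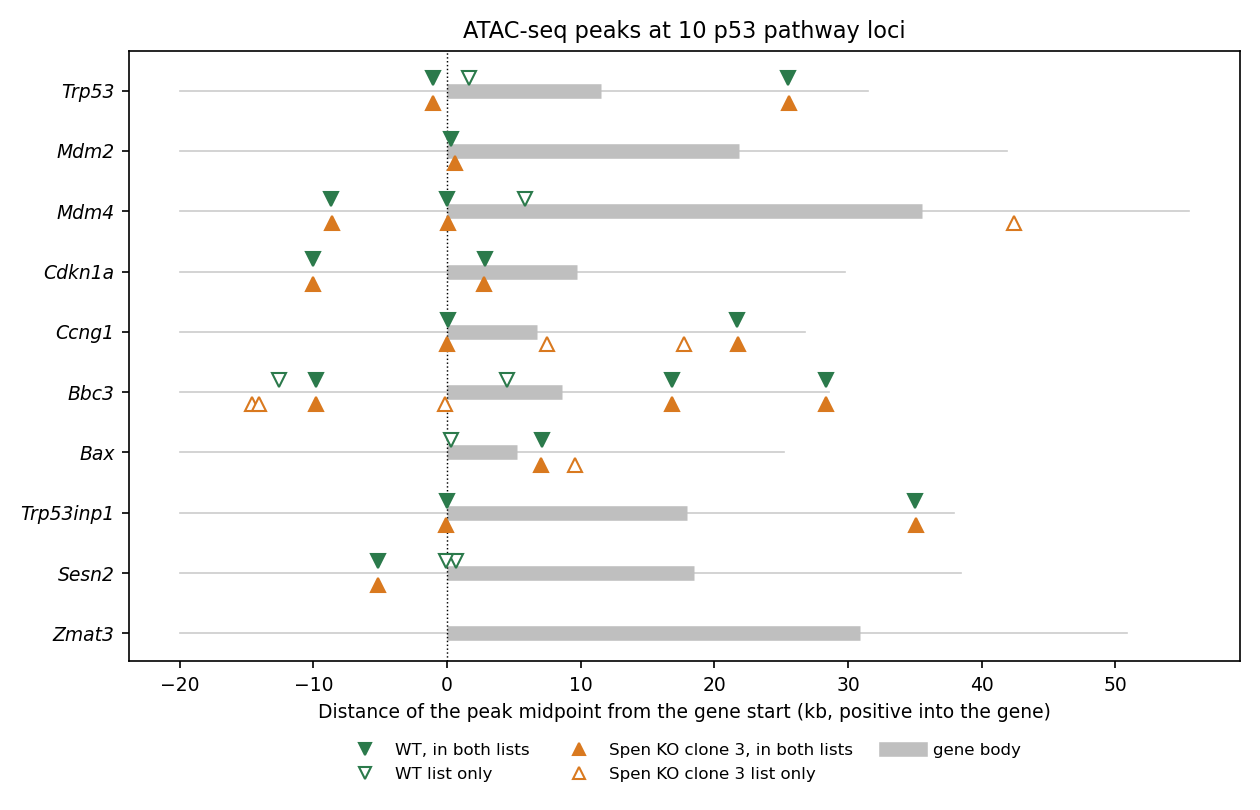
Map of the 46 member peaks at the 10 loci, with the distance of each peak's midpoint from the gene start in kb on the x axis and 1 line per gene. Downward green triangles are WT peaks, upward orange triangles clone 3 peaks, filled where the peak was in both lists and open where it was in 1 list only, and grey bars are gene bodies. Filled pairs lie over the starts of Mdm2, Mdm4, Ccng1 and Trp53inp1, open triangles over those of Bbc3, Bax and Sesn2, and Zmat3 has none.

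A TSS peak is one that overlaps the stretch from 1000 bp upstream to 100 bp downstream of any annotated start of the gene. By this measure 6 of the 10 genes had a TSS peak in both lists, namely Trp53, Mdm2, Mdm4, Cdkn1a, Ccng1 and Trp53inp1. Over all autosomal coding genes the share was 36.6%. The count depended on the definition. With only the 5′ end of each gene record, Mdm2 in clone 3 and Cdkn1a in both lists had none, which left 4 genes. At IDR up to 0.01, Mdm4 in clone 3 and Cdkn1a in WT had none, which also left 4. With 500 bp on either side Trp53 had none in either list, and Bbc3 took its place. With 2500 bp on either side Bbc3 was added to the 6, which made 7. Sesn2 and Bax had a TSS peak in the WT list only, which held for 8.27% of coding genes, and Bbc3 had one in the clone 3 list only, which held for 4.19%. Zmat3 had no peak within 20 kb in either list, as did 23.9% of coding genes.

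Trp53 itself lies on chr11:69393861-69405375 on the plus strand. Its TSS peak ran from 69392605 to 69393050 in WT and from 69392601 to 69393018 in clone 3, so it ended 811 bp and 843 bp before the first Trp53 start. The peak covers the start of Wrap53, a gene of telomerase and Cajal body biology that is read divergently, at 69392826, and it overlaps a Wrap53 exon. Its replicate values were 20.5 and 26.7 in WT and 15.5 and 19.2 in clone 3. As percentiles these were 52.4 and 75.0 in WT and 37.0 and 57.0 in clone 3. The ranges overlapped, and the difference of the score percentiles, clone 3 minus WT, was -18.5 ± 21.3 percentile points (combined SD, n = 2 per list), smaller than that SD. Ranked by 1 replicate alone it was -15.4 by replicate 1 and -18.0 by replicate 2, and the sources do not say that equal numbers in the 2 lists belong together. A WT-only peak of 253 bp lay in a Trp53 intron at percentile 6.33, among the weakest of the list. The second shared peak of this locus covered the start of Atp1b2, which encodes a subunit of the sodium pump. It went the other way, from percentiles 13.5 and 24.5 in WT to 30.8 and 51.0 in clone 3.

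Mdm2, on chr10:117125944-117147814 on the minus strand, had 1 peak in each list. Mdm2 has an outer promoter and an inner one, and the inner promoter is known to answer to p53. The WT peak of 1052 bp (117146975 to 117148026) covered 7 annotated starts and reached 212 bp past the outermost. The clone 3 peak of 477 bp (117146996 to 117147472) covered 3 inner starts and ended 342 bp inside the outermost one. Their inner edges nearly coincided, and the part missing in clone 3 was the outer part. The replicate values were 19.8 and 25.8 in WT and 15.8 and 17.5 in clone 3, which placed them at percentiles 49.5 and 73.1 in WT and 38.5 and 49.9 in clone 3. These ranges overlapped by less than 1 percentile point, with a difference of -20.2 ± 18.5. By replicate 1 alone it was -10.9 and by replicate 2 alone -23.2. No element with up to 2 mismatches lay in either peak. With 3 mismatches, a setting chosen after the values were seen, 2 elements lay near the inner starts within the peak of both lists, in sequence annotated as Mdm2 exon, and they are shown because the shared stretch of the peak holds them.
Mdm2, inner, chr10:117147161-117147180: gggctGGTCAAGTTGGGACACGTCCggcgt
Mdm2, inner, chr10:117147123-117147142: ggaggAGCTAAGTCCTGACATGTCTccagc
Elements this loose are common. In the central 300 bp of peaks they were in 4 of 23 member peaks against 13.6% of all peaks in WT, and in 8 of 23 against 14.4% in clone 3.

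Mdm4, on chr1:134886422-134921943 on the minus strand, encodes the partner of Mdm2 that blocks the activation domain of p53. Its TSS peak had replicate values of 18.9 and 24.3 in WT and 11.4 and 10.7 in clone 3. The percentiles were 45.9 and 68.8 in WT and 15.1 and 12.2 in clone 3, and both clone 3 replicates were below both WT replicates. The score fell from rank 9314 in WT to rank 20707 in clone 3, a difference of -46.4 ± 16.3 percentile points, and 0.763% of 7338 shared peaks at coding TSSs had a lower one. By replicate 1 alone the difference was -30.8 and by replicate 2 alone -56.5. A shared peak with its midpoint at -8651 bp in WT moved the other way, from percentiles 12.2 and 16.1 in WT to 21.3 and 38.6 in clone 3, so the lower ranking at Mdm4 did not extend to its upstream peak. The WT-only peak that holds the Mdm4 element was at percentile 4.89, and a clone 3-only peak lay beyond the end of the gene at percentile 33.2.

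Cdkn1a, which encodes the cell cycle inhibitor p21, lies on chr17:29227924-29237667 on the plus strand. Its TSS peak was not at the first start but at the second, 29230717, which lies 2793 bp further in. The replicate values there were 14.2 and 20.1 in WT and 13.8 and 18.9 in clone 3. The percentiles were 22.5 and 54.4 in WT and 26.3 and 55.8 in clone 3, and the difference was 3.08 ± 30.7, so WT and clone 3 could not be told apart by these replicates. By 1 replicate alone it was 3.77 and 1.32. A second shared peak, with its midpoint at -10019 bp in WT, ranked above the TSS peak in both lists. Its percentiles were 62.1 and 81.7 in WT and 59.5 and 53.7 in clone 3, and the ranges did not overlap.

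Ccng1 encodes cyclin G1, a p53 target that feeds back on Mdm2, and lies on chr11:40562054-40568813 on the minus strand. It had the highest peak of the 46. The replicate values were 64.5 and 62.5 in WT and 51.8 and 53.2 in clone 3, and the peak ranked 283 in WT and 442 in clone 3. All percentiles were between 97.9 and 98.8, and the difference was -0.620 ± 0.172. It exceeded the small spread between the replicates, yet 59.4% of shared TSS peaks had a lower difference. A neighbouring TSS peak shared by Hmmr and Nudcd2 lay at percentiles 70.9 and 66.4 in WT and 54.7 and 60.3 in clone 3. A pair of clone 3-only peaks lay between it and Ccng1, at percentiles 43.5 and 19.3.

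Trp53inp1 encodes a nuclear protein that supports p53 in stress responses, and lies on chr4:11083578-11101526 on the plus strand. Its TSS peak was the second highest at a member's own start. The replicate values were 49.6 and 33.8 in WT and 20.7 and 22.5 in clone 3. The percentiles were 96.0 and 86.6 in WT and 61.7 and 69.6 in clone 3, with a difference of -26.2 ± 8.63 and no overlap. By replicate 1 alone it was -34.2 and by replicate 2 alone -17.0. The width hardly moved, at 640 bp in WT and 622 bp in clone 3. The promoter part of the peak is rich in CpG, shown in capitals (chr4:11083278-11083577, plus strand, 35 CpG in 300 bases).
Trp53inp1: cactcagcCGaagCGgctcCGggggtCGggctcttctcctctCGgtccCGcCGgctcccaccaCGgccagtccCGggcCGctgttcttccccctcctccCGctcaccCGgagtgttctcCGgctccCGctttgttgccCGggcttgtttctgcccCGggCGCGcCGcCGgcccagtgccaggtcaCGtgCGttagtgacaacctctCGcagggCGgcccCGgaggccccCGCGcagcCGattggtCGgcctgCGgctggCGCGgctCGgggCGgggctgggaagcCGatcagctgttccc
The peak at the start of Ccne2, the cyclin E2 gene downstream, went from percentiles 82.6 and 88.6 in WT to 73.0 and 77.8 in clone 3. The ranges did not overlap there either.

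**Figure D2:**
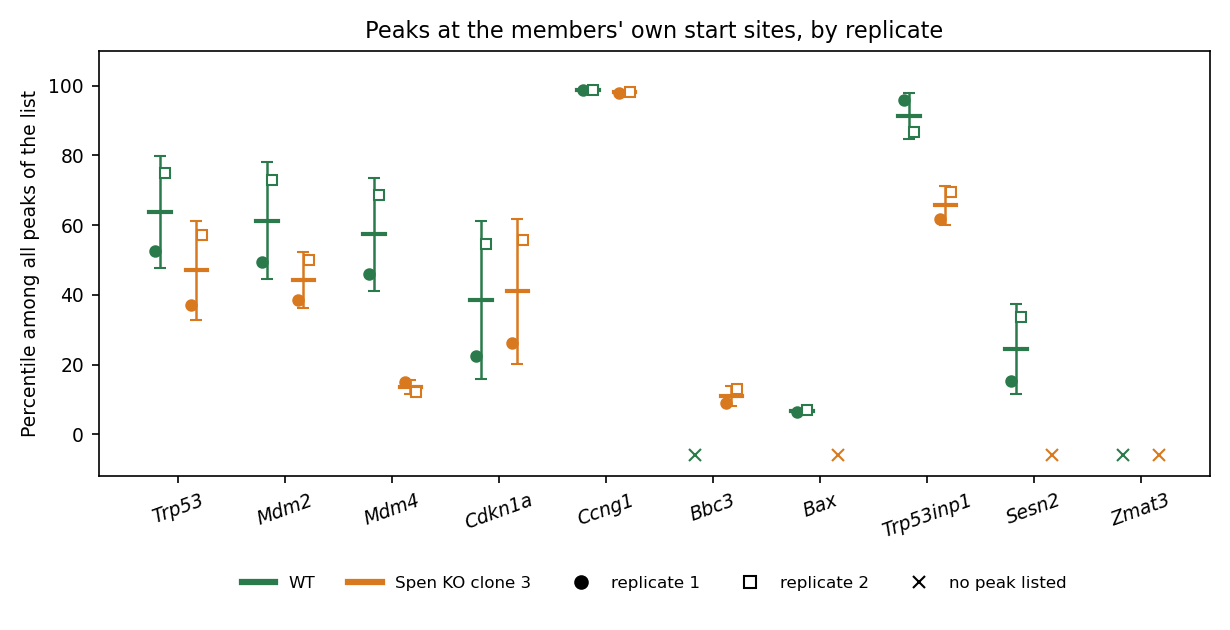
Percentile of each replicate value among all peaks of its list (y axis, 0 to 100) for the TSS peak of each of the 10 genes (x axis), in WT (green) and clone 3 (orange). Circles are replicate 1, open squares replicate 2, horizontal bars their mean, error bars the SD (n = 2) and crosses mark a gene with no TSS peak listed. Mdm4 and Trp53inp1 have clone 3 values well below both WT values, Cdkn1a overlaps almost fully, and Ccng1 is near the top in both.

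Among the death genes, Bbc3, which encodes the BH3-only protein PUMA, lies on chr7:16894965-16903554 on the plus strand. Its TSS peak was in the clone 3 list only, from 16894624 to 16894952, and ended 13 bp before the start. Its replicate values were 9.65 and 10.9, at percentiles 8.91 and 13.1. That is in the lowest 25% of the list by score, where 60.6% of all clone 3 peaks were found in 1 list only. The WT list instead held a peak of 293 bp in a Bbc3 intron, with replicate values of 8.01 and 6.99 and a score percentile of 0.697. With a window of 500 bp on either side of any start, that intronic peak counts as a WT TSS peak, and Bbc3 then has one in both lists. The clone 3 promoter peak is shown as a promoter listed there alone, with CpG in capitals (chr7:16894653-16894952, plus strand, 32 CpG in 300 bases).
Bbc3: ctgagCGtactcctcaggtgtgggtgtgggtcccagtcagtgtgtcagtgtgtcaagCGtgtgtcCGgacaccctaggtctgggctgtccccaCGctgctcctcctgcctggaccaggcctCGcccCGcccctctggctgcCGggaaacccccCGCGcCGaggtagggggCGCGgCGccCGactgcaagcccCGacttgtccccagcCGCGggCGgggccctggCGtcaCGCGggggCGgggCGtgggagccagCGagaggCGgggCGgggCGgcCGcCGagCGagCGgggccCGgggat
The Bbc3 locus held the most peaks, 5 in WT and 6 in clone 3, of which 3 were shared. A pair of the shared peaks lay in introns of Sae1, a SUMO-activating enzyme gene next to Bbc3. None of the 3 had separate ranges in WT and clone 3. The remaining peaks lay upstream and were found in 1 list only, with a WT midpoint at -12545 bp (percentile 17.2) and clone 3 midpoints at -14559 bp and -14038 bp (percentiles 12.5 and 11.2).

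Bax, which encodes a protein that opens the mitochondrial outer membrane, lies on chr7:52717065-52722268 on the minus strand. Its TSS peak was in the WT list only, with replicate values of 9.66 and 10.1 at percentiles 6.24 and 7.06. It too was in the lowest 25% by score, where 59.5% of all WT peaks were found in 1 list only. The nearest clone 3 peak was 1.66 kb from the gene. That peak covered the start of Ftl1, the ferritin light chain gene, and was shared. It ranked lower in clone 3, with percentiles of 49.7 and 66.8 in WT and 28.7 and 30.7 in clone 3. A clone 3-only peak further from the gene was at percentile 11.8. An element with 2 mismatches lay in an exon of Bax within the WT peak, at 192 bp from the nearest start.

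Sesn2, which encodes a stress protein that restrains mTORC1 signalling, lies on chr4:132047947-132066416 on the minus strand. Its only annotated start was under a WT peak of 502 bp with replicate values of 12.6 and 15.8, at percentiles 15.3 and 33.5. A second WT-only peak of 432 bp lay in a Sesn2 intron at the start of the noncoding gene Gm12981, and was stronger, with replicate values of 22.4 and 19.9 at percentiles 59.6 and 53.9. It was the WT-only member peak with the highest score. Neither had a clone 3 peak, and the nearest clone 3 peak was 4.90 kb from the gene. That peak was shared, with its midpoint at -5159 bp in WT, and was among the higher member peaks in both lists. Its percentiles were 80.8 and 84.1 in WT and 71.9 and 75.4 in clone 3. The Sesn2 promoter is shown as the counterpart of that of Bbc3, listed in WT alone, with CpG in capitals (chr4:132066417-132066716, minus strand, 15 CpG in 300 bases).
Sesn2: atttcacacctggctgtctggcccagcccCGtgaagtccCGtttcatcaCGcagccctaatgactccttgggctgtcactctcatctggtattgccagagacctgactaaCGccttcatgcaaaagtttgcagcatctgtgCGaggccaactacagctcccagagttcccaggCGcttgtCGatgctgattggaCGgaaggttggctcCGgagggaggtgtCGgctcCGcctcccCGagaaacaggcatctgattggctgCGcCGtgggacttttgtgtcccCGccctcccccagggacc
Over all peaks at coding TSSs the median was 7.50 CpG per 100 bp in WT and 7.44 in clone 3, against 1.57 and 1.54 away from them. The Sesn2 TSS peak had 7.17 CpG per 100 bp, the Bax peak 7.46 and the Bbc3 peak 10.3, so the TSS peaks found in 1 list were not poor in CpG.

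Zmat3, a zinc finger gene whose product binds RNA and acts in p53 tumour suppression, lies on chr3:32233718-32264600 on the minus strand. It has 3 annotated starts and none carried a peak. The nearest peak was 31.0 kb from the gene in WT and 31.1 kb in clone 3.

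Of the 23 peaks in each list, 16 were shared, where 1 bp of overlap was enough. The other 7 were found in 1 list only, which is 30.4% in WT and in clone 3 (95% Wilson interval 15.6 to 50.9, covering counting error only). Over all autosomal peaks the share was 26.0% in WT and 28.4% in clone 3, both inside that interval. By score, 6 of the 7 WT-only and 5 of the 7 clone 3-only peaks were in the lowest 25% of their list. Among peaks that low, 6 of 9 WT member peaks and 5 of 7 clone 3 member peaks were found in 1 list only, against 59.5% and 60.6% of all peaks. Own TSS peaks were found in 1 list only in 2 of 8 cases in WT and 1 of 7 in clone 3, and the 4 TSS peaks of coding neighbours were shared. At all coding TSSs the shares were 20.6% and 12.7%. Peaks away from any TSS were found in 1 list only in 4 of 10 cases in WT and 6 of 12 in clone 3, against 30.0% and 37.8% of all peaks away from coding TSSs. The 1 peak at the noncoding start of Gm12981 was in the WT list only. For the own TSS peaks, the neighbour TSS peaks and the peaks away from a TSS, the share of all peaks lay inside the 95% Wilson interval of the members. With 4 to 12 peaks per class these intervals were wide, such as 0 to 49.0 for the neighbour TSS peaks of each list. They would hold a broad range of shares and count peaks of 1 locus as independent, so no conclusion is drawn from them.

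The 6 shared TSS peaks of the members ranked lower in clone 3 in 5 cases, with a median difference of -19.4 percentile points. All 7338 shared peaks at coding TSSs had a median of -2.84, and 62.9% of them ranked lower in clone 3. Separate ranges, with both clone 3 replicates below both WT replicates, were found at 3 of the 6, namely Mdm4, Ccng1 and Trp53inp1, against 29.1% of all coding TSS pairs. None of the 6 had both clone 3 replicates above, against 13.4%. Over all 16 shared member peaks, 8 were below and 2 above, the latter at Atp1b2 and upstream of Mdm4, against 22.9% and 23.0% of 16053 autosomal pairs. Neighbour genes moved as well as members, since 3 of their 4 TSS peaks were below.

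**Figure D3:**
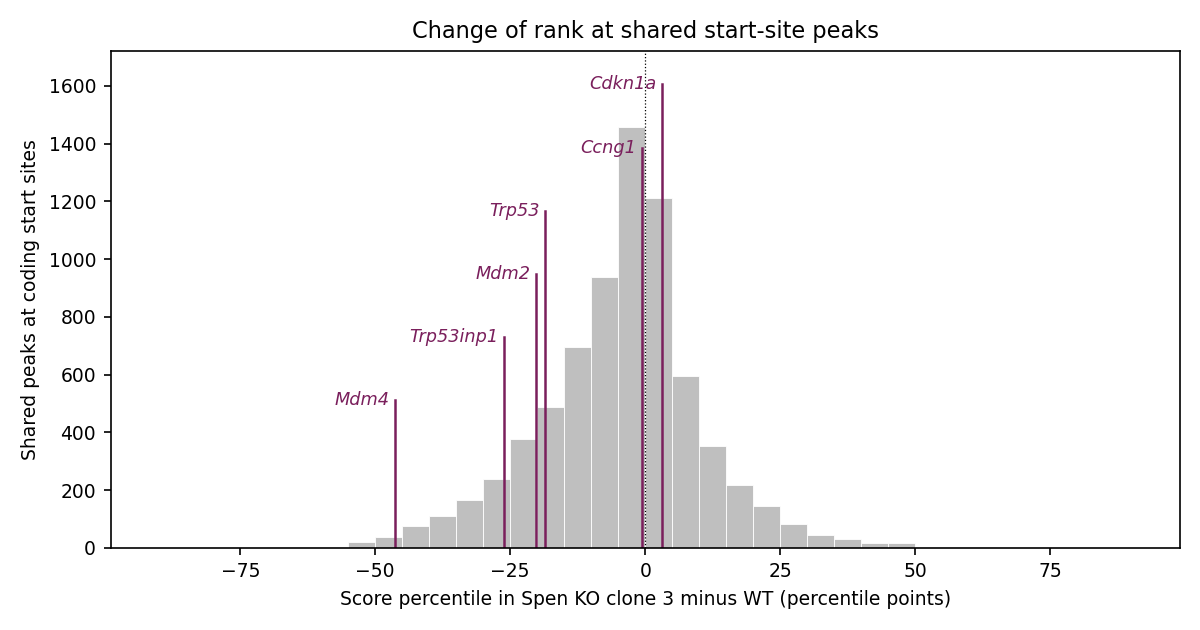
Histogram of the difference in score percentile, clone 3 minus WT (x axis, percentile points, bins of 5), for 7338 shared peaks at coding TSSs (y axis, number of peaks). Purple lines of differing height, which carries no value, mark the 6 members, with Mdm4 at -46.4 in the far left tail and Ccng1 at -0.620 and Cdkn1a at 3.08 in the centre.

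Peaks of the members were also narrower in clone 3. This held for 15 of the 16 shared pairs, the exception being Atp1b2, against 57.8% of all shared autosomal pairs and 64.2% of those at coding TSSs. The median width was 572 bp in WT and 439 bp in clone 3 over the member pairs, and 584 bp and 558 bp over all pairs. The largest change was at Mdm2, where the clone 3 peak had 0.453 of the WT width, followed by 0.568 at Ftl1 and 0.572 at Hmmr and Nudcd2. Widths are those of the authors' peak caller and carry no replicate value, so the difference has no error.

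**Figure D4:**
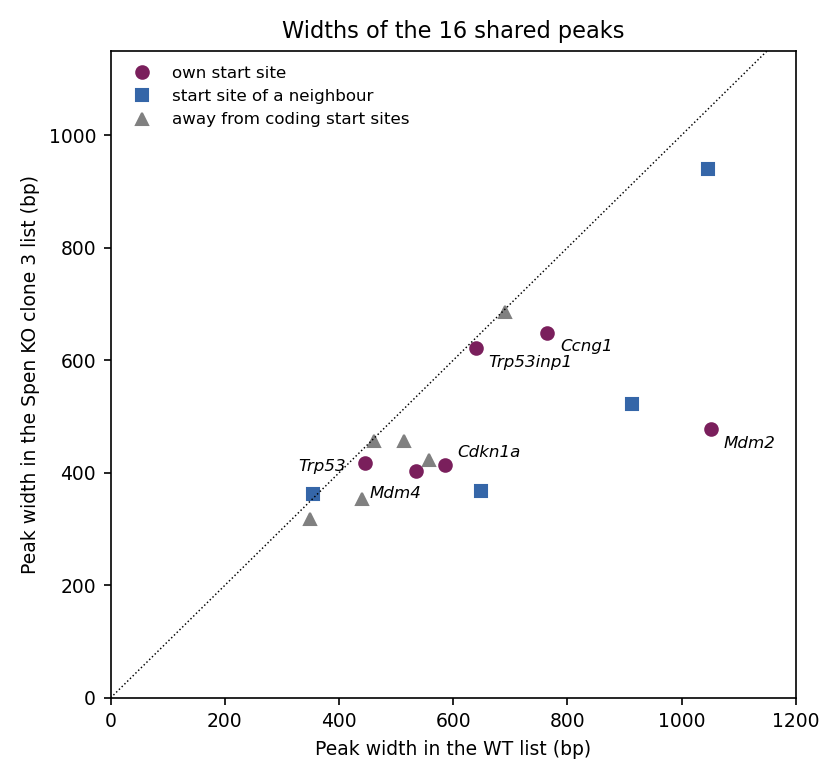
Width of the 16 shared member peaks in WT (x axis, bp) against clone 3 (y axis, bp), with circles for TSS peaks of the members, squares for TSS peaks of neighbours, triangles for other peaks and a dotted line at equal width. All but 1 of the points are below the line, with Mdm2 farthest from it at 1052 bp and 477 bp.

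A further 34 genes of the pathway were examined in 5 groups. TSS peaks were present in both lists at 26, in the WT list only at 3, in the clone 3 list only at 0 and in neither at 5. Of all autosomal coding genes, 36.6% had one in both lists, 8.27% in WT only and 4.19% in clone 3 only. The kinases that signal damage had them at 4 of 5 in both lists, with Atr in WT only. The regulators of p53 had them at 7 of 7. The arrest and repair targets had them at 10 of 11, all but Plk3. The death targets had them at 5 of 9 in both lists, while Apaf1, which builds the apoptosome, and Bid, a BH3-only protein, were in WT only, and the death receptor genes Fas and Tnfrsf10b were in neither. Trp63 and Trp73, the relatives of p53, had no TSS peak in either list. At 25 genes the highest TSS peaks of WT and clone 3 overlapped. There, 11 had both clone 3 replicates below both WT replicates and 4 above. The median difference, taken over all 26 genes with a TSS peak in both lists, was -6.79 percentile points. Over all shared peaks at coding TSSs 29.1% were below and 13.4% above, with a median of -2.84. The kinases had 1 below and 1 above of 4, the regulators of p53 2 below and 1 above of 6, the arrest and repair targets 6 below and 2 above of 10, and the death targets 2 below and 0 above of 5.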

How the data were processed

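ATAC-seq libraries of HATX mESCs were made and sequenced by the authors. The tools named are CutAdapt for adapters, Bowtie2 for alignment against mm9, Picard for duplicates and MACS2 for peaks. Only read pairs with a single, concordant placement entered, and a peak had to recur between technical replicates by IDR. The authors deposited, for each peak, its position, its length, a value or score for each of 2 replicates on a scale that is not named, and the IDR. Uniquely mapped reads under-call repeated sequence. Reads were not used here.

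Peaks were read through their columns, ranked within a list and joined to the NCBIM37 sequence and GENCODE annotation, which match mm9, with Python 3.11.15, numpy 2.4.6 and pandas 2.3.3. The percentile of a peak is the midpoint of its rank among all peaks of the list, counted from the lowest. Comparisons with all peaks or pairs used autosomes. Overlap and the element search were tested on simulated data and against bedtools 2.31.1. Wilson intervals came from scipy 1.17.1. All 10 genes were reported, with each of their peaks in the text or on the map of the loci, and of the 34 further genes only those with a TSS peak in 1 list or none were named. The genes, lists and rules were chosen with earlier results of these data known. Alternatives changed the window, the overlap, the TSS stretch, the IDR, the replicate, the ranking set and the element. A stretch of sequence at Ccng1, other than the element printed, is not reported here.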

Additional observations from a re-analysis of the deposited data

How the results depend on the processing

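The lists are short at these loci and the depth behind them is unknown, so counts move with the window and the IDR. With a window of 5 kb the members had 14 WT and 11 clone 3 peaks, and at IDR up to 0.01 they also had 14 and 11. Among peaks at or above the median score, 8.33% of WT and 0 of 6 clone 3 member peaks were found in 1 list only, against 6.29% and 9.02% of all autosomal peaks. At IDR up to 0.01 the shares were 21.4% and 9.09%, against 12.2% and 12.8%. The median difference of the 6 TSS peaks was between -17.5 and -13.2 when 1 replicate was left out, and 5 of 6 were lower each time. Without replicate 1 the difference of Trp53inp1 went to -17.0 and that of Cdkn1a to 1.32, and without replicate 2 those of Mdm2 and Mdm4 went to -10.9 and -30.8. No gene changed sign in the alternatives on rank, although Ccng1 went to -1.15 when ranked among coding TSS peaks. Element counts depended on the setting. They were 2 in WT and 0 in clone 3 with up to 2 mismatches in the central 300 bp, 1 in WT with 1 mismatch, 4 in each with spacers of 0 to 13 bases (10.8% and 10.9% of all peaks), and 4 and 8 with 3 mismatches (13.6% and 14.4%), an alternative chosen after seeing the data. Of the 20 elements, 4 lay within 500 bp of a WT peak and 2 of a clone 3 peak, also chosen after seeing the data. The number of genes with a TSS peak stayed within 1.5 times its value under the TSS stretches and IDR tried, although the genes counted changed. No paired analysis was possible because the replicate values carry no label that ties a number in 1 list to the same number in the other. The differences by 1 replicate alone set equal numbers side by side as values only.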
